A study of Mus musculus with 4 samples.

Results

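The genes of the HoxD cluster were followed in the autopod, the hand or foot region at the tip of the limb bud, by reading all probe sets that the platform annotation assigns to exactly 1 of 9 listed genes, Hoxd13 to Hoxd1. The rule found 10 probe sets for 8 of the 9 genes, among 34958 probe sets that carry 1 symbol. Hoxd4 had no probe set of its own: 2 further probe sets are assigned to both Hoxd3 and Hoxd4 and are given beside the members without being counted. The series holds 4 arrays, 2 of Hox13dKO and 2 of wild-type embryos, all of strain C57BL/6 at embryonic stage E11.25. Hox13dKO embryos are Hoxa13-/- and also carry, on both chromosomes, HoxDdel, which deletes Hoxd11, Hoxd12 and Hoxd13 together; wild-type embryos have neither change. Each sample was cut from the Hoxd13-expressing domain of both fore- and hindlimb buds, so each value averages over both limbs. How many embryos made up a sample is not known here. The samples are named biological replicates. In limma, p-values weigh a difference against the spread between these samples, combined with a spread estimated from all tested probe sets by signal. That second part carried 6.05 degrees of freedom against 2 from the samples.

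Hox genes encode homeodomain transcription factors that give cells their position along the body and limb axes. In each cluster they lie on the chromosome in the order in which they are used, and in the limb the genes at the Hoxd13 end act most distally, in the digits, whereas genes towards the other end act earlier and more proximally. HoxD is known for 2 phases of limb expression: an early proximal phase driven by enhancers beyond the Hoxd1 end, and a late distal phase driven by enhancers beyond the Hoxd13 end. On chromosome 2 of RefSeq assembly GRCm38.p6 all 9 genes lie on the + strand in the order Hoxd13, Hoxd12, Hoxd11, Hoxd10, Hoxd9, Hoxd8, Hoxd3, Hoxd4 and Hoxd1, with the RefSeq entry of Hoxd3 spanning Hoxd4.

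The DNA just before the start site is shown for all 6 genes that follow the deletion, because the signals turned from flat to higher between Hoxd10 and Hoxd9. The sequences are the 250 bases upstream of the annotated start, from RefSeq (GRCm38.p6, + strand), at chr2:74691641-74691890 for Hoxd10, chr2:74697513-74697762 for Hoxd9, chr2:74704365-74704614 for Hoxd8, chr2:74711743-74711992 for Hoxd3, chr2:74721728-74721977 for Hoxd4 and chr2:74762730-74762979 for Hoxd1. Capitals mark the letters ATAAA, or TTTAT on the opposite strand, which are part of CAATAAA, 1 form of site that HOX13 proteins are known to prefer. Other forms of HOX13 site were not searched for.
Hoxd10: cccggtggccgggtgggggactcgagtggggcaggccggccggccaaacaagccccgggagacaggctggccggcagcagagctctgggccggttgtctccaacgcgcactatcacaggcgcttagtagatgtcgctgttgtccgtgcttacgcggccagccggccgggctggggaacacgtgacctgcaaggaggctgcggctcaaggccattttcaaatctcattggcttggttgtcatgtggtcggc
Hoxd9: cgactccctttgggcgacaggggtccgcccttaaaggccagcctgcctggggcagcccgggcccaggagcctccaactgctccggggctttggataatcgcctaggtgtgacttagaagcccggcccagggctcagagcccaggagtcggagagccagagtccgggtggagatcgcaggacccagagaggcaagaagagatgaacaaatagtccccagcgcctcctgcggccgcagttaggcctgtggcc
Hoxd8: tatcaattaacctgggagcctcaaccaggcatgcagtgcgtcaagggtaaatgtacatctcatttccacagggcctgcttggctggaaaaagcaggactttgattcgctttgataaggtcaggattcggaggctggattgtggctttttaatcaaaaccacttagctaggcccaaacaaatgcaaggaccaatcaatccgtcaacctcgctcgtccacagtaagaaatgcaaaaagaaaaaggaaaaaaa
Hoxd3: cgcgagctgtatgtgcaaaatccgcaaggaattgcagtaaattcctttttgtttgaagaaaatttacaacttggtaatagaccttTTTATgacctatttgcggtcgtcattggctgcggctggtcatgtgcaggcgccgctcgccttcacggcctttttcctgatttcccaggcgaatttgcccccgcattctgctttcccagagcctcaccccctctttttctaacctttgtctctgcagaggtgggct
Hoxd4: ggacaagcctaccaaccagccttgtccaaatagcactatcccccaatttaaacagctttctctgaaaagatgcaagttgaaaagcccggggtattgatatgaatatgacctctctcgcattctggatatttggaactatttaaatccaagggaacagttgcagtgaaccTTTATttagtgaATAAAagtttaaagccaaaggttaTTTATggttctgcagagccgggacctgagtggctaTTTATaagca
Hoxd1: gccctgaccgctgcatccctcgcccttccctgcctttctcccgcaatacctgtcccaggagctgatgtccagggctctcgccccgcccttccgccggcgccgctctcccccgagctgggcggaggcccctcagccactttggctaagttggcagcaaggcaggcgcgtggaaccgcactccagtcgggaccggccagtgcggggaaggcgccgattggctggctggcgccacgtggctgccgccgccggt
ATAAA on either strand occurred 0 times in the windows of Hoxd10, Hoxd9, Hoxd8 and Hoxd1, 1 time in that of Hoxd3 and 4 times in that of Hoxd4. Over all 32841 windows of the same length in the RefSeq table, 37.3% held it at least once and 2.27% held it 4 times or more. The longer form CAATAAA, which contains ATAAA, was in 0 of the printed windows and in 4.21% of all windows. The homeodomain core TAATTA, the same on both strands, was also in 0 of the printed windows, against 4.84% of all. GC content was 65.6% for Hoxd10, 65.2% for Hoxd9, 44.4% for Hoxd8, 49.2% for Hoxd3, 40.4% for Hoxd4 and 71.6% for Hoxd1, with a median of 52.4% over all windows. These matches describe letters in these windows only.

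Values are MAS5 signals in arbitrary linear units, scaled by the authors to a common trimmed mean, and array medians were 65.8 to 85.7. Signals below 14.1 units, the 20th percentile of all values, were raised to that floor before log2 was taken, and 27022 probe sets averaging 39.5 units or more on the log2 scale entered the limma test. Of these, 56 (0.207%) passed an adjusted p of 0.05, of which 31 were higher (0.115%) and 25 lower (0.0925%) in Hox13dKO. Of the 10 HoxD probe sets 9 were tested, 2 passed as higher and 4 as lower. Without Hox13dKO replicate 1 the log2 differences of Hoxd9 and the brighter Hoxd8 probe set were 2.30 and 1.65. Without Hox13dKO replicate 2 they were 2.36 and 1.71. Not every call as higher was kept in these fits, in which the lone Hox13dKO array is assumed to vary like the wild type. When dim probe sets were not filtered out, 0 of the 10 passed in limma (7 had an unadjusted p under 0.05), and 0 of all 45037 probe sets passed. When the variance prior had no intensity trend, 1 passed, for Hoxd13, and it was the only 1 of all 27022 probe sets to do so. The 4 lower ones belong to the 3 genes that the allele removes, so they check the labels. Arrays of the groups did not overlap for 8 of the 9 tested, 4 with both Hox13dKO arrays higher (16.3% of all probe sets tested) and 4 with both lower (18.3%). In bulk samples such as these, fewer cells of a kind and less RNA per cell cannot be told apart. The plot of signals on each array shows the turn from lower to higher along the cluster.

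**Figure D1:**
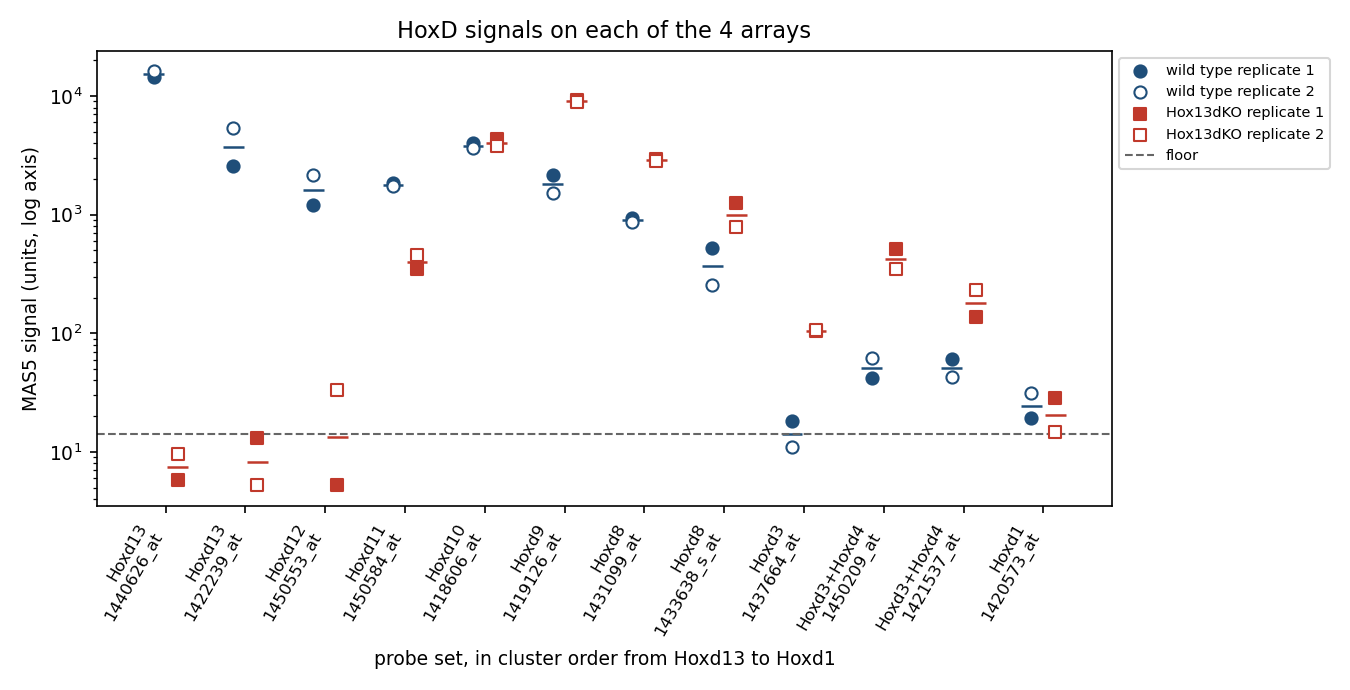
MAS5 signal (log axis) of every HoxD probe set on each array, in cluster order from Hoxd13 to Hoxd1; circles are wild type, squares Hox13dKO, short lines geometric means over 2 arrays, and the dashed line the floor of 14.1 units. Hox13dKO arrays lie below wild type from Hoxd13 to Hoxd11, overlap with it at Hoxd10 and Hoxd1, and lie above it from Hoxd9 to the probe sets shared by Hoxd3 and Hoxd4.

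Hoxd13, the last gene of the cluster and a specifier of digits, read 5.79 and 9.58 units in Hox13dKO against 14540 and 16117 in wild type by probe set 1440626_at. Its other probe set, 1422239_at, read 13.1 and 5.25 against 2573 and 5395. All 4 Hox13dKO readings lay below the floor and all wild-type readings far above it. Hoxd13 was thus at least 1088-fold lower by the first (limma adjusted p = 6.44e-07) and at least 265-fold lower by the second (adjusted p = 0.000311). Both probe sets were tested only through their wild-type signals, and the floor removed all spread between their mutant values. Hoxd12, which acts with Hoxd13 in digit patterning, by probe set 1450553_at read 5.23 and 33.5 in Hox13dKO against 1208 and 2171 in wild type. Its log2 difference, Hox13dKO minus wild type, was -6.22 ± 0.48 (SE, n = 2 each, limma adjusted p = 0.00427), with 1 Hox13dKO value at the floor. Both Hox13dKO values lay below the filter, so Hoxd12 too was tested only through its wild-type signals. Leaving out Hox13dKO replicate 1 gave -5.59, and leaving out Hox13dKO replicate 2 gave -6.85.

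Hoxd11, which shapes the forearm and wrist together with Hoxa11, fell but was still read on both mutant arrays. By probe set 1450584_at it read 348 and 454 in Hox13dKO against 1831 and 1745 in wild type, a mean of 401 ± 74.6 against 1788 ± 60.9 (SD, n = 2 each). Both mutant arrays were well below both wild-type arrays but far above the floor. The log2 difference was -2.17 ± 0.19 (SE, limma adjusted p = 0.00779), 4.50-fold lower. Where the probes lie relative to the removed DNA is not known here. What the remaining signal reports was not tested.

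Hoxd10, the first gene kept beyond the deletion and known for patterning of the lower limb segments and of the motor neurons of the leg, did not pass the test. Its probe set, 1418606_at, read 4330 and 3788 in Hox13dKO against 4004 and 3646 in wild type, and the groups overlapped. The log2 difference was 0.08 ± 0.14 (SE, limma adjusted p = 0.972), with a 95% interval from -0.23 to 0.40. Differences below -0.23 or above 0.40 thus lie outside this interval, which rests on 2 arrays per group. Without Hox13dKO replicate 1 the difference was -0.013.

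Hoxd9, which with Hoxa9 patterns the upper limb segment, rose 5.03-fold. Its probe set, 1419126_at, read 9282 and 8878 in Hox13dKO against 2147 and 1516 in wild type, a mean of 9080 ± 285 against 1831 ± 446 (SD, n = 2 each). Both mutant arrays stood above both wild-type arrays by a gap many times the spread within either group. The log2 difference was 2.33 ± 0.18 (SE, limma adjusted p = 0.00427, 95% interval 1.92 to 2.74). Without Hox13dKO replicate 2 it was 2.36 and just missed the threshold (adjusted p = 0.0533).

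Hoxd8, a gene of the cluster's middle, rose 3.21-fold by its brighter probe set, 1431099_at. It read 2936 and 2829 in Hox13dKO against 939 and 860 in wild type, and the groups were far apart (log2 difference 1.68 ± 0.14 SE, limma adjusted p = 0.00779, 95% interval 1.35 to 2.01). It missed the threshold when either Hox13dKO array was left out, at 1.65 (adjusted p = 0.0934) with replicate 1 omitted and 1.71 (adjusted p = 0.0950) with replicate 2 omitted. The second Hoxd8 probe set, 1433638_s_at, whose suffix marks probes shared by several transcripts, read 1249 and 791 against 524 and 257. Its arrays pointed the same way without overlap but scattered more, and its log2 difference of 1.44 ± 0.35 did not pass (adjusted p = 0.290). It passed without wild type replicate 1 (1.95, adjusted p = 4.73e-05) and after median centring (1.47, adjusted p = 0.0333), but not without wild type replicate 2 (0.92, adjusted p = 0.0580) or either Hox13dKO array (1.11 and 1.77, adjusted p = 0.946 and 0.548).

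Hoxd3 and Hoxd4, genes of the anterior group best known from the hindbrain and neck vertebrae, were dim in wild type. Hoxd3 by its own probe set, 1437664_at, read 104 and 107 in Hox13dKO against 18.3 and 10.95 in wild type. The wild-type arrays lay at or near the floor, so the probe set was tested only through its mutant signals, and the size of its difference rests on the floor. The log2 difference was 2.72 ± 0.68 (SE, limma adjusted p = 0.303), not past the threshold. The brighter probe set shared by Hoxd3 and Hoxd4, 1450209_at, read 510 and 350 against 41.7 and 61.8. It passed at 8.32-fold higher (3.06 ± 0.39, adjusted p = 0.0353), but missed the threshold without Hox13dKO replicate 1 (2.78, adjusted p = 0.403) or replicate 2 (3.33, adjusted p = 0.228). The other shared probe set, 1421537_at, read 138 and 232 against 60.2 and 42.8 (1.82 ± 0.48, adjusted p = 0.334). All 3 probe sets had both mutant arrays above both wild-type arrays, and which of the 2 genes the shared ones report is not resolved.

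Hoxd1, the other end of the cluster and a gene of sensory neurons and early mesoderm, was dim in both groups. Its probe set, 1420573_at, read 28.3 and 14.6 in Hox13dKO against 19.3 and 31.4 in wild type, overlapping and below the filter for testing. With the filter removed its log2 difference was -0.27 ± 0.49 (SE, limma adjusted p = 0.956). A fall or a small change in Hoxd1 was not detectable at this signal. Neither Hox13dKO reading of Hoxd1 came near the 104 and 107 units that the Hoxd3 probe set read there.

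**Figure D2:**
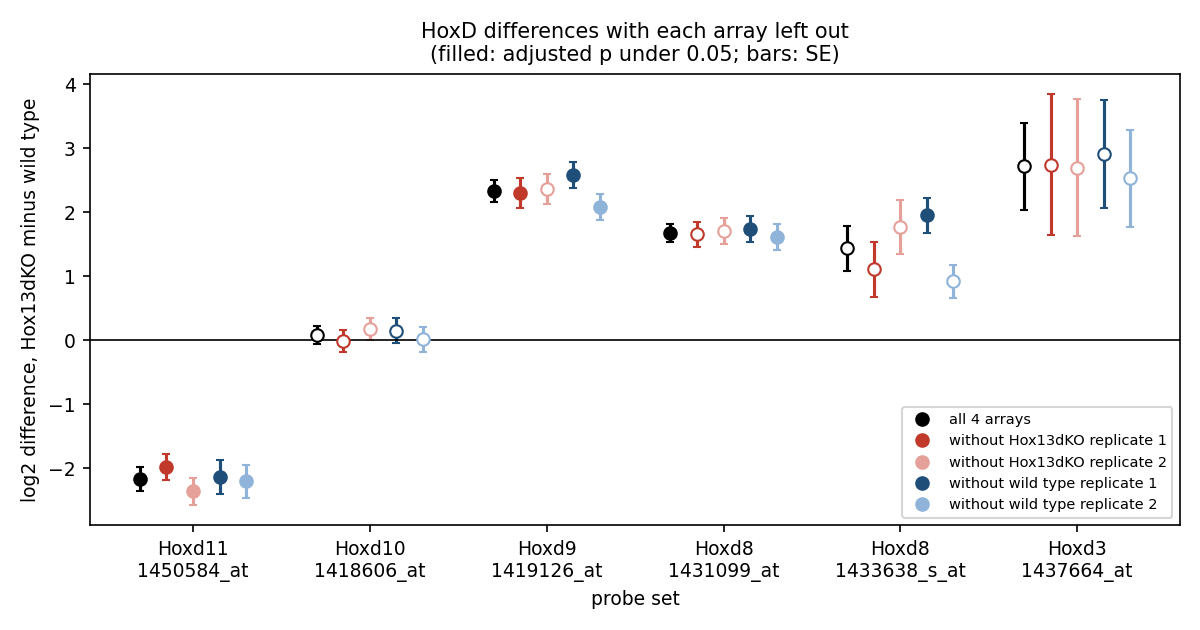
Log2 difference, Hox13dKO minus wild type, of 6 HoxD probe sets with all 4 arrays (black) and with each array left out in turn (colours), with bars for the SE and filled points past an adjusted p of 0.05. Hoxd11, Hoxd9 and Hoxd8 keep their side of 0, and Hoxd10 stays between -0.013 and 0.18.

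Neighbouring genes were compared by how far their log2 differences stood apart on the same arrays, with an exact two-sided permutation test over the 2 against 2 samples, whose smallest possible p is 0.333. The difference of Hoxd10 exceeded that of the deleted Hoxd11 by 2.25 ± 0.29 (SD within groups, exact p = 0.333). The step from Hoxd10 to Hoxd9 was as large, with Hoxd9 exceeding Hoxd10 by 2.25 ± 0.19 (exact p = 0.333). From Hoxd9 to Hoxd8 the step was smaller and in the other direction, -0.65 ± 0.19 (exact p = 0.333). Hoxd3 exceeded Hoxd8 by 1.04 ± 0.14 (exact p = 0.333), with 1 wild-type Hoxd3 value at the floor, and by 0.34 with a pseudocount of 16 in place of the floor. In all 4 pairs the per-array values of the groups did not overlap, and this permutation test cannot reach 0.05.

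**Figure D3:**
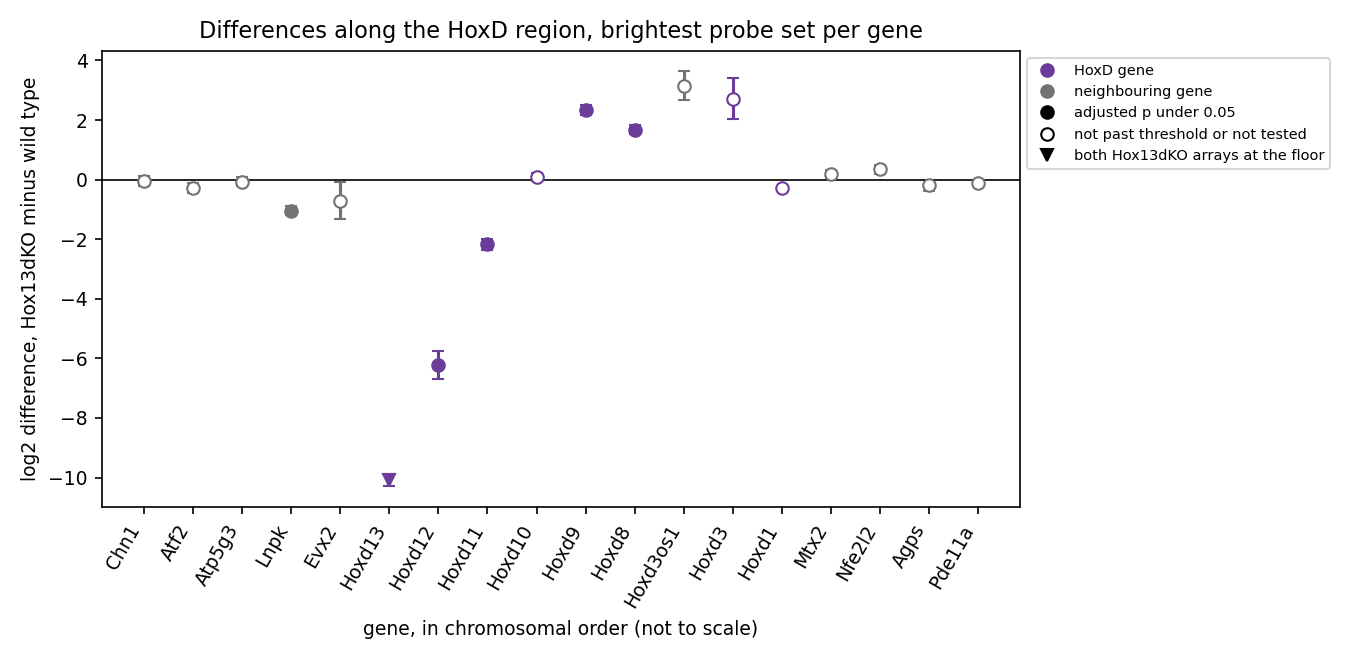
Log2 difference, Hox13dKO minus wild type, of the brightest probe set per gene along the HoxD region in chromosomal order, with bars for the SE of tested genes; purple points are HoxD genes, grey points neighbours, filled points passed an adjusted p of 0.05, and the triangle is a bound because both Hox13dKO arrays lay at the floor. Differences run from -10.09 at Hoxd13 through 0.08 at Hoxd10 to 2.33 at Hoxd9, while the tested genes outside the cluster lie between -1.05 and 0.35.

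Beyond the cluster, 1 of 8 tested neighbouring genes passed. Lnpk, a gene of endoplasmic reticulum shape on the Hoxd13 side, read 927 and 853 in Hox13dKO against 1807 and 1875 in wild type, 2.07-fold lower (limma adjusted p = 0.0493). This call was narrow: it was lost without either Hox13dKO array (adjusted p = 0.252 and 0.368), after quantile normalization (0.0512) or median centring (0.321), with no floor (0.0518) and with robust eBayes (0.0517). Evx2, a homeobox gene between Lnpk and Hoxd13, was dim and overlapped (log2 difference -0.71 ± 0.62 SE, adjusted p = 0.939). On the Hoxd1 side Mtx2, of the mitochondrial outer membrane, differed by 0.20 ± 0.14 (adjusted p = 0.921), and further out Nfe2l2, an oxidative stress regulator, by 0.35 ± 0.15 (adjusted p = 0.802). Atf2, a stress-responsive factor beyond Lnpk, differed by -0.28 ± 0.17 (adjusted p = 0.900). The antisense RNA gene Hoxd3os1, inside the cluster beside Hoxd3, read 492 and 1409 in Hox13dKO against 122 and 72.9 in wild type. Its log2 difference of 3.14 ± 0.49 came with no overlap but missed the threshold (adjusted p = 0.0720). It passed under some alternatives, among them without wild type replicate 1 (3.51, adjusted p = 9.17e-07), without wild type replicate 2 (2.77, adjusted p = 1.47e-05), after median centring and with 1 probe set per gene (adjusted p = 0.0271). It missed the threshold without Hox13dKO replicate 1 (3.90, adjusted p = 0.0641) and without Hox13dKO replicate 2 (2.38, adjusted p = 0.406). The median log2 difference of the 8 neighbours outside the cluster was -0.13, against -0.03 over 13071 genes tested by their brightest probe set.

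HoxA, the cluster that works with HoxD in the limb, was set beside it by paralogue number. Of 11 listed HoxA genes 9 had a probe set of their own and were tested: 2 were higher and 1, the targeted Hoxa13, was lower (0.161% higher and 0.145% lower over 13071 genes by their brightest probe set). By that probe set all 8 untargeted genes had both Hox13dKO arrays above both wild-type arrays, against 2238 of 13071 genes. All 8 also had an unadjusted p under 0.05 in limma, against 1692 of all 27022 probe sets. Hoxa13 read 52.4 and 58.0 in Hox13dKO against 842 and 1463 in wild type, 20.1-fold lower (limma adjusted p = 0.00427), and where its probes lie relative to the disrupted sequence is not known here. Hoxa11, a forearm gene, rose 3.63-fold (5490 and 5628 against 1568 and 1492, adjusted p = 0.00427), whereas its paralogue Hoxd11 is deleted. Hoxa10 and Hoxa9 differed by 0.52 each and did not pass (adjusted p = 0.482 and 0.317), beside 0.08 for Hoxd10 and 2.33 for Hoxd9. Hoxa7, a trunk gene with no HoxD paralogue, rose by 3.72 ± 0.42 (SE, adjusted p = 0.0227) from dim wild-type signals of 24.5 and 29.5, and missed the threshold without either Hox13dKO array (adjusted p = 0.347 and 0.333). Its wild-type signals lie below the filter, so it was tested only through its mutant signals of 358 and 352. Hoxa5, Hoxa4, Hoxa3 and Hoxa2 differed by 1.06 to 1.51, none past the threshold (Hoxa5 was nearest, adjusted p = 0.0727, and its second probe set differed by 0.11). The 8 untargeted HoxA genes had a median of 1.30 that includes Hoxa7, and the 4 tested untargeted HoxD genes a median of 2.01 that includes Hoxd3. Differences between paralogues were not tested.

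**Figure D4:**
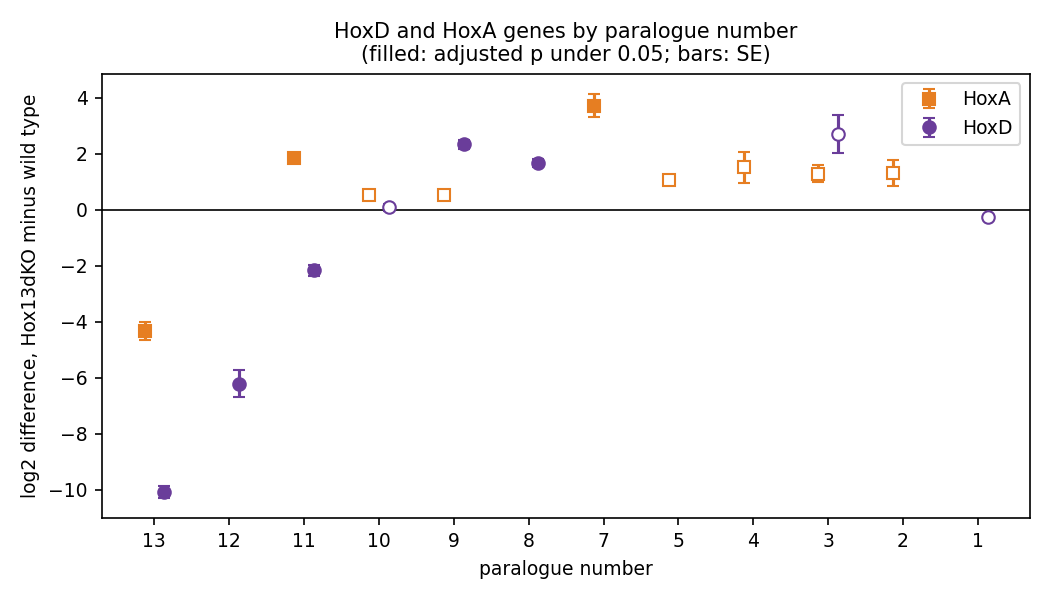
Log2 difference, Hox13dKO minus wild type, of HoxD (circles) and HoxA genes (squares) by paralogue number, brightest probe set per gene, with bars for the SE of tested genes and filled points past an adjusted p of 0.05. Hoxd10 lies at 0.08 and Hoxa10 at 0.52, while Hoxd9 lies at 2.33 and Hoxa9 at 0.52; the value at Hoxd13 is a bound.

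HoxB and HoxC genes, on other chromosomes, had 0 of 11 tested genes past the threshold in limma (3 at an unadjusted p under 0.05) and a median of 0.18. Those 3 were higher in Hox13dKO without overlap: Hoxc4 (log2 difference 3.07, adjusted p = 0.220), Hoxc5 (1.28, 0.657) and Hoxc6 (0.91, 0.765). Hoxc4 read 120 and 116 in Hox13dKO against 5.59 and 10.6 in wild type. Both wild-type values lay below the floor, so it was tested only through its mutant signals. Of the 11 differences 7 were positive.

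Markers of other cells and of the proximal limb were read on the same arrays. The limb mesenchyme markers Prrx1, Prrx2, Msx1, Twist1, Hand2 and Lhx9 read between 2341 and 11938 units on every array, and 0 of the 6 passed in limma (1 at an unadjusted p under 0.05). All 7 tested proximal limb markers other than Hox genes had positive log2 differences, and 5 had an unadjusted p under 0.05 in limma. In 6 of the 7 both Hox13dKO arrays lay above both wild-type arrays. Of the 7, 2 passed as higher, Shox2 (3.28-fold) and Tshz2 (3.35-fold). The other 5 did not pass, among them Tbx18 (log2 difference 0.995, adjusted p = 0.157) and Meis1 (0.39, adjusted p = 0.939). Both calls were lost without either Hox13dKO array, and the summed signal of all 8 markers was 11261 and 10727 in Hox13dKO against 5458 and 4247 in wild type. Of 5 muscle markers 1 rose, Actc1 (13.6-fold; log2 difference 4.44 without Hox13dKO replicate 1, and 3.08, not past the threshold at adjusted p = 0.119, without replicate 2). Myog, Myod1 and Myf5 differed by 1.25 to 3.54 (adjusted p = 0.132 to 0.675) and Pax3 by -1.16 (adjusted p = 0.928), none past the threshold. The 3.54 is that of Myog, which read 222 and 424 in Hox13dKO against 49.3 and 10.7 in wild type. With 1 wild-type value at the floor, the size of its difference rests partly on the floor. Among the 5 muscle markers 4 had an unadjusted p under 0.05 in limma. The summed muscle signal was 1401 and 3244 in Hox13dKO against 317 and 358 in wild type, of which Actc1 gave 880 and 2252 against 116 and 92.7. Ectoderm markers had 0 of 6 past in limma and 1 at an unadjusted p under 0.05 (summed signal 5471 and 6856 against 5860 and 5127). Endothelial markers had 0 of 4 and 2 (1790 and 2324 against 1452 and 1423). Macrophage markers had 0 of 4 and 1 (1085 and 1171 against 880 and 974). Erythroid markers had 0 of 3 and 0 (89560 and 105168 against 74740 and 97263), and nerve markers 0 of 2 and 1 (148 and 257 against 328 and 355). No marker with a probe set was at the floor on all 4 arrays. The part of any of these in the HoxD values was not tested.

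The profile over the 4 arrays most like that of Hoxd9 was Cyp1b1, a cytochrome P450 gene, at a root mean square difference of 0.036 log2 units, among 23530 tested probe sets with 1 symbol other than HoxD. Cyp1b1 read 1216 and 1136 in Hox13dKO against 263 and 196 in wild type. Next came the homeobox gene Gbx2, at 0.054, and the troponin gene Tnni2, at 0.14. For Hoxd10, among 11913 probe sets with a difference under 0.2 in size, the nearest were A2m at 0.0075, Ift80, of cilia, at 0.0086 and Jarid2, of Polycomb complexes, at 0.0098. Over 4 arrays such likeness is a description.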

How the data were processed

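RNA of 2 Hox13dKO and 2 wild-type autopod samples was hybridised to 1 Affymetrix array each, per the labels. The deposited values are probe set intensity on a linear scale, made with MAS5 per the submitters' processing notes, which give no version. The 2% trimmed mean was 500.003 on each array. Of 45101 probe sets 34958 carried 1 symbol, 932 several and 9211 none, and 64 control probe sets were left out. Signals were floored at 14.1, log2 was taken without further normalization, and probe sets whose mean log2 signal reached the 40th percentile were tested with limma 3.58.1 in R 4.3.3 (eBayes with an intensity trend, two-sided, Benjamini-Hochberg over 27022 probe sets, threshold 0.05). The fit had 2 residual and 6.05 prior degrees of freedom. A fold is a lower bound where a group's arrays were all at the floor. Lists used the brightest probe set per gene. The fit was run on simulated data, with a pass rule on the median error and sign of the estimates only. Spread did not depend on signal there, so that run does not bear on the intensity trend. The number of arrays limits the precision. MAS5 detection calls were not used here.

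Named genes are all members, the HoxA and neighbouring genes of lowest p (up to 4 each) and members of small counts. Evx2, Mtx2 and the other HoxA genes with values were named after their values were seen. The members and lists were chosen with earlier results of these data known. Alternatives were other normalizations, floors, filters and variance models, a replicate block, 1 probe set per gene, a looser threshold and leaving out each array. Figures used matplotlib 3.10.9.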

Additional observations from a re-analysis of the deposited data

How the results depend on the processing

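The count of HoxD probe sets past the threshold, 6, stayed between 5 and 7 under median centring, quantile normalization, a pseudocount of 16 or no floor, the stricter filter, robust eBayes, an adjusted p of 0.10, 1 probe set per gene and the replicate block. It ranged from 4 to 7 with an array left out, where a lone array is assumed to vary like the other group. It was 0 with no filter, among 45037 probe sets of which none passed in limma (7 of 10 HoxD probe sets had an unadjusted p under 0.05), and 1, a Hoxd13 probe set, without the intensity trend. The HoxA count, 3, was 0 with no filter (7 of 9 genes at an unadjusted p under 0.05), 0 without the trend (8 of 9), 7 with the replicate block, and 2 to 5 with an array left out. With an array left out, calls over all probe sets changed as well. They fell without either Hox13dKO array and rose without either wild-type array, so these ranges are not particular to HoxD or HoxA. The cause of these changes was not tested. For single HoxD probe sets, 105 alternative values kept their direction and side of the threshold, 14 fell below it, 3 rose past it and 1 changed sign, Hoxd10 without Hox13dKO replicate 1 (-0.013; it ranged from -0.013 to 0.18 over the arrays left out). The step from Hoxd8 to Hoxd3 was 1.22 with no floor, 1 Hoxd3 value lying below it, and 0.34 with the pseudocount, which by construction shrinks differences of dim probe sets. Replicate numbers are shared by the groups without a stated link, and same-numbered deviations correlated at 0.198 across probe sets. With the number as a block, 7 HoxD probe sets passed, among them the second of Hoxd8 (adjusted p = 0.00217), and 418 of all probe sets against 56.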
